A study of Mus musculus with 18 samples.

Results

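Egr1, Egr2, Egr3, Nab1, Nab2, Nr4a1, Nr4a2, Nr4a3, Srf and Myc encode 10 nuclear proteins of the immediate transcriptional response to outside signals, and their transcripts were followed in mouse macrophages over the first 30 min of stimulation. Their probe sets were taken by gene symbol in the array annotation, whatever their signals. The members themselves were chosen with earlier results of these data known, so their counts beside all probe sets are descriptions. They made up 10 of 18193 genes with a symbol on the array and were read by 22 of 45037 probe sets. Of these 22 probe sets, 17 were bright enough to be tested, and they covered 9 of the 10 genes. The macrophages were grown for 7 days with CSF-1, supplied by L-cell conditioned medium, from bone marrow of IL-10-/- mice, so all groups lacked a working Il10 gene. After scraping, re-plating and removal of CSF-1, they were given lipopolysaccharide (LPS, 100 ng/ml) together with IL-10 (10 ng/ml), or LPS alone, for 10, 20 or 30 min. The 6 groups held 3 arrays each, 1 from each of 3 independent experiments, which were run in sequence on mice matched for age and sex. Untreated cells and cells given IL-10 alone were not analysed here, so the values compare times and treatments and give no change from rest.

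The EGR proteins are zinc-finger transcription factors whose genes are switched on without new protein synthesis. A common route runs through the kinase ERK, which activates ternary complex factors bound beside serum response factor (SRF) on DNA elements known as CArG boxes. NAB1 and NAB2 are co-repressors that bind EGR proteins and limit their activity. The NR4A proteins are orphan nuclear receptors that bind DNA without a known natural ligand and whose genes respond to CREB as well as to inflammatory signals in macrophages. MYC is a growth regulator whose transcript is short-lived and responds to CSF-1 in macrophages. LPS acts through Toll-like receptor 4, and IL-10 acts through STAT3 to restrain macrophage activation.

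Promoter sequences are shown for members whose DNA upstream of the start site holds elements of these routes, since the expression of these genes is what the arrays follow. They come from RefSeq on mouse build GRCm38.p6, in a promoter table from which windows of 7 of the 10 genes were used. Windows of Egr1, Egr3 and Myc were not part of the search of member promoters, so these genes are named only. The counts over all windows below took every window of the promoter table. Which elements their promoters hold was not examined here. In the 250 bases before the start site of Srf there were 2 CArG boxes, here in capitals, on the minus strand of chromosome 17 (chr17:46556193-46556292), beginning 82 and 62 bases before the start.
Srf: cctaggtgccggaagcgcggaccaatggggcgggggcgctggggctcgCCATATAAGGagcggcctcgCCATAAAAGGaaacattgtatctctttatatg
The Egr2 gene, on the plus strand of chromosome 10, has several annotated starts, and a CArG box lay 72 bases before 2 of them (chr10:67537787-67537816 and chr10:67537484-67537513).
Egr2, downstream start: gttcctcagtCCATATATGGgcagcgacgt
Egr2, upstream start: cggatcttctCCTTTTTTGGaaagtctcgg
A CArG box was present in 482 of 32851 promoter windows of this length (1.47%), and 6 of these windows (0.0183%) had it at 2 or more positions.

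The NR4A promoters shared the letters TGACG, the opening letters of the CREB element, searched on both strands. Nr4a1, Nr4a2 and Nr4a3 each had it at 4 positions, and so did 0.137% of all windows at 4 or more. At least 1 copy was present in 17.8% of windows. The copies are in capitals in the sequence of Nr4a1 (chr15:101266596-101266845, plus strand) and in the part of the Nr4a3 promoter that holds all 4 (chr4:48045055-48045174, plus strand).
Nr4a1: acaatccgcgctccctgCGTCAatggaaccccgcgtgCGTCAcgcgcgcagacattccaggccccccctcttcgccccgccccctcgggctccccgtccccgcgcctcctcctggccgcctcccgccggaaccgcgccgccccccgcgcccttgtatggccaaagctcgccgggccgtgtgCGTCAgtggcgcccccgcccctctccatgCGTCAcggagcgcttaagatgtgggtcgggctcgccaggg
Nr4a3: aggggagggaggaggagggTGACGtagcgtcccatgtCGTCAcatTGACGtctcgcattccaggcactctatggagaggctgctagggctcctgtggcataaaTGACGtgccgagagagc
In Nr4a1 each copy was part of the longer run TGCGTCA, which 1.75% of windows had at least once. The EGR element GCGNGGGCG, present in 4.7% of windows on either strand, occurred at 3 positions in the promoter of Nab1 and at 1 in those of Nr4a1, Nr4a2 and Srf. The Nab2 window had none of these 4 elements. These matches describe letters in a window and were not tied to binding.

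The deposited values are array intensities on a linear scale, called signals here. Each array had been scaled to a trimmed mean near 500, with array medians of 75.6 to 120.9. The arrays of experiments 2 and 3 with LPS at 20 min stood apart at the low end, with lower quartiles of 38.6 and 34.0 against 21.8 to 31.0 on the other 16 arrays, so results that rest on them are also given without them. The Il10 probe set read 602 to 3209 on the 18 arrays, which does not check the deletion because the position of the probes relative to it was not used here. All 8 macrophage markers (Csf1r, Adgre1, Itgam, Cd14, Cd68, Lyz2, Fcgr1 and Mrc1) were at or above the array median on every array. Of 8 granulocyte markers 7 were as well, and their summed signal was 11994 to 14209 in experiment 2, against 7257 to 8810 in experiment 1 and 5806 to 9214 in experiment 3. Tested B- and T-lymphocyte and dendritic-cell markers did not reach the median on all arrays. Of 5 stromal-cell markers 4 were tested, and 3 (Col1a1, Col1a2 and Col3a1) reached it on all arrays. Dcn and Lum did not. In bulk samples such as these, fewer cells of a type and less RNA per cell cannot be told apart.

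Egr1 was the member with the clearest change over time: its transcript was more abundant at 30 than at 10 min in every experiment and under both treatments. With LPS plus IL-10 the signals of the probe set 1417065_at in experiments 1, 2 and 3 were 773, 160.5 and 338 at 10 min, 765, 282 and 773 at 20 min, and 2202, 1162 and 637 at 30 min. With LPS they were 642, 141 and 273 at 10 min, 696, 556 and 1802 at 20 min, and 1804, 2136 and 976 at 30 min. Under LPS plus IL-10 the lowest array at 30 min lay below the highest at 10 min, whereas under LPS all 30 min arrays lay above the 10 min arrays. Averaged over the treatments, Egr1 rose by 2.02 on the log2(signal + 16) scale, or 4.06-fold, at 30 against 10 min when the experiment was a block in the limma fit (SE 0.34, 95% interval 1.30 to 2.74, Benjamini-Hochberg adjusted p = 0.00603). Without the block the same difference had an SE of 0.45 and an adjusted p of 0.272. The call also needed experiments 1 and 2, since the blocked adjusted p was 0.0752 without experiment 1 and 0.464 without experiment 2, where the difference was 1.4. Without experiment 3 it was 0.000656.

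Within each treatment, the Egr1 difference between 30 and 10 min did not pass the test in the fit of all 18 arrays. With LPS plus IL-10 it was 1.70 (blocked SE 0.48, blocked adjusted p = 0.329), and the experiments gave 1.49, 2.74 and 0.88. With LPS it was 2.34 (blocked SE 0.48, blocked adjusted p = 0.101), and the experiments gave 1.47, 3.78 and 1.78. The LPS difference passed in the blocked limma fit without experiment 3 (adjusted p = 0.0157), without both low-end LPS arrays at 20 min (adjusted p = 0.0240) and without that of experiment 3 alone (adjusted p = 0.0159).

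The experiments differed in when Egr1 was highest. At 30 against 20 min, the log2 difference was 1.51 and 1.98 in experiments 1 and 2 but -0.27 in experiment 3 under LPS plus IL-10, and it was 1.35 and 1.91 but -0.87 under LPS. In experiment 1 the signal was close to level between 10 and 20 min, with differences at 20 against 10 min of -0.01 under LPS plus IL-10 and 0.11 under LPS, whereas experiment 3 gave 1.16 and 2.65 in that order. The brighter Egr2 probe set was likewise higher at 30 than at 20 min in experiments 1 and 2 and lower in experiment 3 under both treatments, and 2.39% of all tested probe sets had this pattern. The 20 min LPS array of experiment 3 is one of the 2 that stood apart, and its part in the pattern was not tested. The plot of signals by time and experiment shows these courses.

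**Figure D1:**
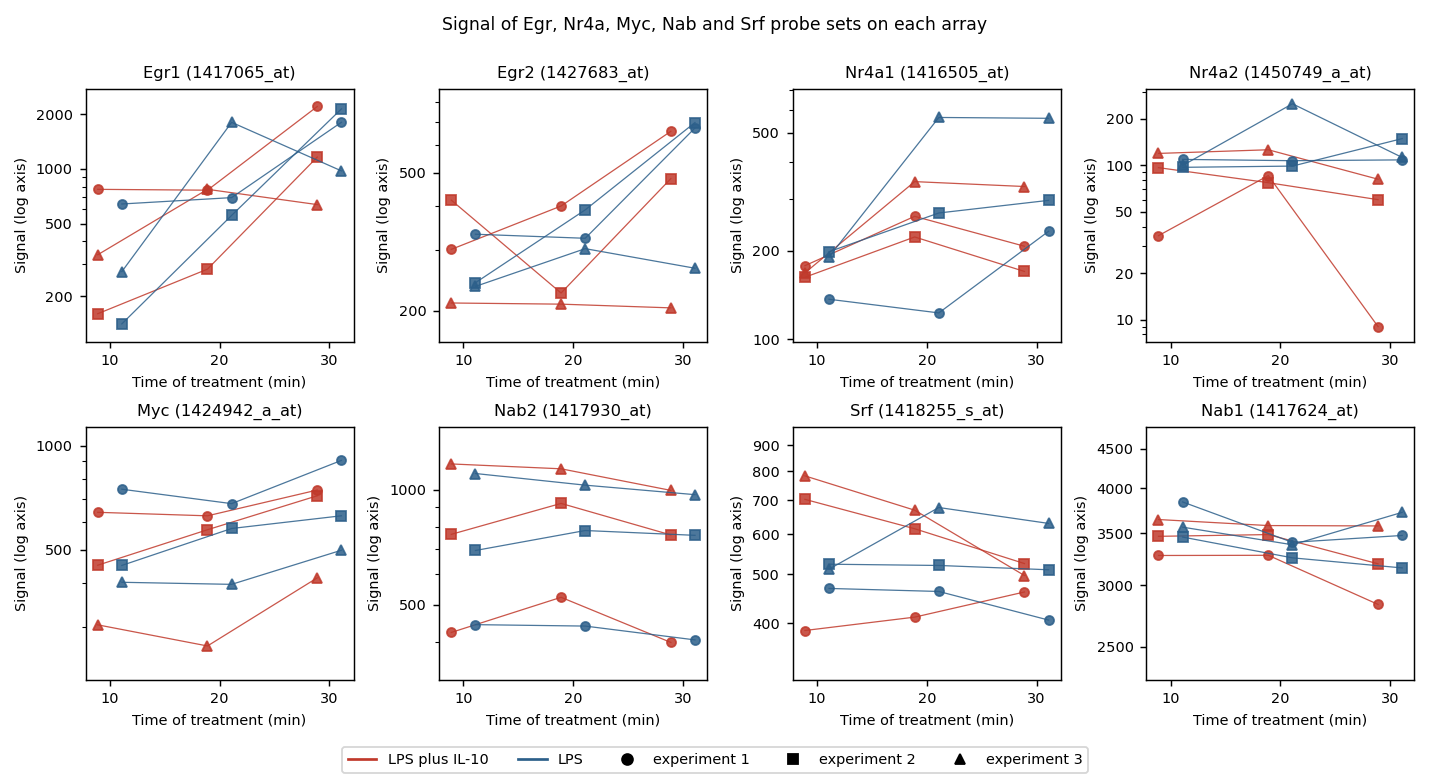
Signal on each of the 18 arrays (log axis) against the time of treatment in min, for the brightest tested probe set of 8 members, with LPS plus IL-10 in red and LPS in blue. Each mark is 1 array, its shape gives the experiment, and lines join the arrays of 1 experiment and treatment. Egr1 lies between 637 and 2202 at 30 min and between 141 and 773 at 10 min, while Nab2 keeps its 3 experiments apart at every time.

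Egr2, a relative of Egr1 that takes part in macrophage and myeloid differentiation, had the same direction with smaller differences. The signals of 1427683_at in experiments 1, 2 and 3 of cells given LPS plus IL-10 were 301, 417 and 211 at 10 min, 401, 225 and 209 at 20 min, and 658, 481 and 204 at 30 min. The LPS values were 332.5, 241 and 235 at 10 min, 324, 391 and 302 at 20 min, and 673, 697 and 265 at 30 min. The 30 min arrays of experiments 1 and 2 were the high ones under both treatments, and the groups overlapped through experiment 3. The difference between 30 and 10 min, averaged over the treatments, was 0.64 (blocked SE 0.19, blocked adjusted p = 0.285). Without experiment 3, the blocked limma fit gave 0.94 with an adjusted p of 0.0332.

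The dimmer Egr2 probe set, 1427682_a_at, was higher at 30 than at 10 min in all 6 pairs of arrays of the same experiment and treatment. In cells given LPS plus IL-10 it read 246, 58.8 and 150 in experiments 1, 2 and 3 at 10 min, 253, 337.5 and 251 at 20 min, and 349, 309 and 233.5 at 30 min. With LPS it read 334, 269 and 122 at 10 min, 186, 346.5 and 162 at 20 min, and 374, 415 and 354 at 30 min. With LPS the 30 min arrays lay above the 10 min arrays without overlap, and its averaged difference between 30 and 10 min was 0.89 (blocked SE 0.25, blocked adjusted p = 0.266).

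Egr3, which acts with Egr2 in lymphocytes, was near the limit of the arrays, and its probe sets disagreed. The brighter one, 1436329_at, reached the array median on 6 of 18 arrays. It read 33.4 to 145.5 at 10 min, 28.9 to 175 at 20 min and 54.3 to 186 at 30 min with LPS plus IL-10, and 48.5 to 175, 30.5 to 112 and 55.4 to 229 with LPS. Experiment 1 held the highest array of every group. The other, 1421486_at, was lower at 30 than at 10 min in all 6 pairs, with an averaged difference of -1.03 (blocked adjusted p = 0.402), against 0.33 (blocked adjusted p = 0.866) for 1436329_at. No direction for Egr3 follows from these values.

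The co-repressor genes showed no shift over time of the size seen for Egr1. Nab1 read 2833.5 to 3841 on 1417624_at over the 18 arrays, and its averaged difference between 30 and 10 min was -0.09 (blocked 95% interval -0.23 to 0.05). Its second probe set, 1448781_at, read 854 to 1153, and its dimmest, 1438819_at, 54.7 to 210.4. Nab2, whose gene EGR proteins can activate, differed by -0.08 between 30 and 10 min (blocked 95% interval -0.25 to 0.08). Both intervals end well below the Egr1 difference.

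Nab2 differed between the experiments instead. On 1417930_at all arrays of experiment 3 (970 to 1166) lay above those of experiment 2 (693 to 920), and these above those of experiment 1 (399 to 523). Cells given LPS plus IL-10 had signals in experiments 1, 2 and 3 of 423.5, 764 and 1166 at 10 min, 523, 920 and 1133 at 20 min, and 399, 761 and 995 at 30 min. Cells given LPS had 444, 693 and 1101 at 10 min, 440, 782 and 1027 at 20 min, and 405, 759 and 970 at 30 min. No array crossed into the range of another experiment, a separation found in 2.67% of tested probe sets, counted in any order of the experiments. The granulocyte marker sums took another order, with experiment 2 highest, and their part in the Nab2 difference was not tested.

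Of the sum of squares of Nab2 over the 18 arrays, 95.4% lay between experiments and 1.9% between times. The medians over all tested probe sets were 37.9% and 7.0%. Egr1 had the opposite balance, with 15.9% between experiments and 53.7% between times. Myc (71.6%), Srf (60.8% on its brighter probe set) and Egr3 1436329_at (79.7%) were also mostly a matter of the experiment. Treatment took 1.5% for Egr1, and its share was highest among the members for Nr4a2 1450749_a_at, at 26.7%.

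**Figure D2:**
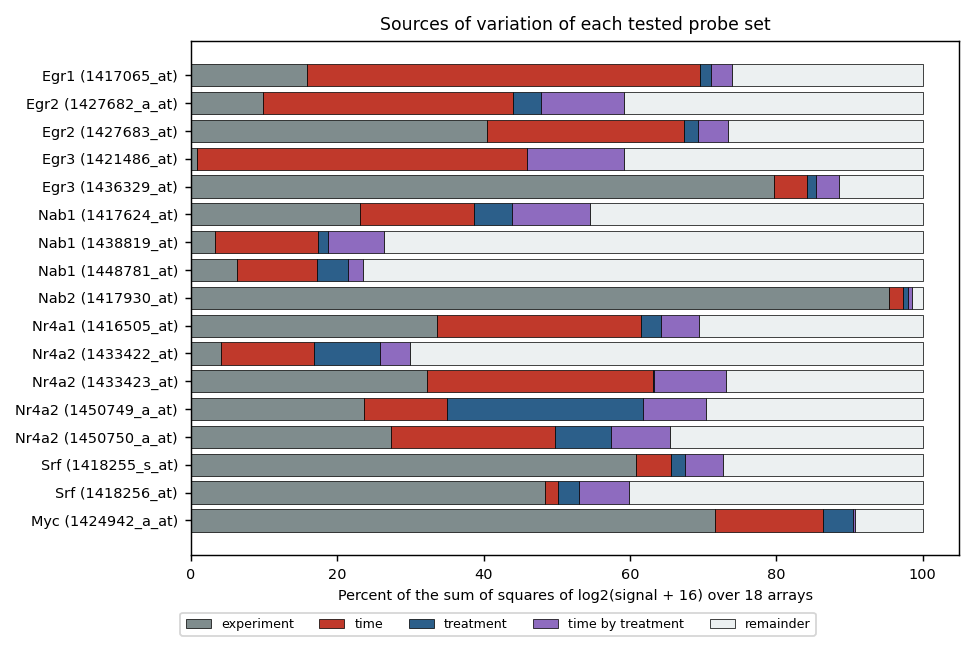
Percent of each tested probe set's sum of squares of log2(signal + 16) over 18 arrays that lies between experiments, times and treatments, in their interaction and in the remainder. Nab2 is almost wholly the experiment (95.4%), whereas time is the widest section for Egr1 (53.7%).

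Among the orphan receptors, Nr4a1 was measured well enough to follow, and it stood higher at 30 than at 10 min in all 6 pairs of arrays. Under LPS plus IL-10 its probe set 1416505_at read, in experiments 1, 2 and 3, 178, 162 and 168 at 10 min, 261, 222 and 342 at 20 min, and 207, 170 and 329 at 30 min. Under LPS it read 137, 198 and 190 at 10 min, 123, 268 and 564 at 20 min, and 232, 296 and 560.5 at 30 min. With LPS the 30 min arrays did not overlap the 10 min arrays, and the highest signals were those of experiment 3. The averaged difference between 30 and 10 min was 0.65 (blocked SE 0.21, 95% interval 0.21 to 1.09, blocked adjusted p = 0.373). At 20 against 10 min the averaged difference was 0.61 (blocked SE 0.21, blocked adjusted p = 0.515). Under LPS plus IL-10 it was 0.63, with 0.52, 0.42 and 0.96 in the experiments. Under LPS it was 0.59, with -0.14, 0.41 and 1.49. In the fit without the block it stayed at 0.59 without the low-end array of experiment 2 and was 0.07 without that of experiment 3. With the block these values were 0.52 and 0.24. Without both low-end arrays it was -0.44, or -0.26 with the block, which rests on 1 LPS array at 20 min.

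Nr4a2 and Nr4a3, the other 2 receptors, gave low signals. The brightest Nr4a2 probe set, 1450749_a_at, reached the array median on 13 of 18 arrays. Its signals with LPS plus IL-10 in experiments 1, 2 and 3 were 35.0, 96.6 and 119.5 at 10 min, 85.8, 77.2 and 126 at 20 min, and 9.0, 59.9 and 81.3 at 30 min. Its LPS signals were 109, 97.1 and 99.8 at 10 min, 107, 98.9 and 251 at 20 min, and 108.5, 149 and 112.5 at 30 min. At 30 min the 2 treatments did not overlap, with LPS plus IL-10 the lower. The other 3 tested Nr4a2 probe sets ran from 5.1 to 326, and their averaged differences between 30 and 10 min were 0.13, -0.12 and -0.10, against -0.23 on 1450749_a_at. A further pair of Nr4a2 probe sets read 4.3 to 109 and was not tested. Nr4a3 was below the array median on all arrays on 2 probe sets (3.3 to 55.3 and 3.9 to 40.8) and on 16 of 18 arrays on 1421080_at (11.8 to 188), so it was not tested. Its highest value, 188, came from LPS at 20 min in experiment 3.

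Srf encodes the factor that binds the CArG boxes shown above, and its own transcript showed no difference over time that passed the test. The signals of 1418255_s_at with LPS plus IL-10 in experiments 1, 2 and 3 were 387, 703.5 and 783 at 10 min, 412, 615 and 670 at 20 min, and 461.5, 525 and 497 at 30 min. With LPS they were 469, 524 and 512 at 10 min, 463, 521 and 678 at 20 min, and 406, 511 and 630.5 at 30 min. All times overlapped, and experiment 1 gave the lowest array of every group. The averaged difference between 30 and 10 min was -0.12 (blocked 95% interval -0.36 to 0.11), and it was -0.10 on 1418256_at. Under LPS plus IL-10 experiments 2 and 3 were lower at 30 than at 10 min and experiment 1 was higher, for a mean difference of -0.27 (blocked 95% interval -0.60 to 0.07).

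Myc differed between the experiments and was a little higher at 30 min within each of them. With LPS plus IL-10 the signals of 1424942_a_at in experiments 1, 2 and 3 were 642, 451.5 and 304 at 10 min, 627, 572 and 264 at 20 min, and 744, 716 and 415 at 30 min. With LPS they were 748, 451 and 403 at 10 min, 680, 576 and 398 at 20 min, and 906, 627 and 499 at 30 min. Experiment 1 was the highest and experiment 3 the lowest in each group, so the times overlapped although all 6 pairs were higher at 30 than at 10 min. The averaged difference was 0.39 (blocked SE 0.11, 95% interval 0.16 to 0.62, blocked adjusted p = 0.256).

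Taking the members as a list, 1 of 17 probe sets, that of Egr1, passed the test at 30 against 10 min averaged over the treatments with the block, where 0.435% of the 27110 tested probe sets passed. Without the block the count was 0 of 17, with 0.059% of all probe sets called. In the other time comparisons no member passed in either fit. At 30 against 10 min the shares of all probe sets called without and with the block were 0.0443% and 0.225% in cells given LPS plus IL-10, and 0.0184% and 0.111% in cells given LPS. At 20 against 10 min these shares were 0.0111% and 0.0332% for LPS plus IL-10, 0% and 0.0148% for LPS, and 0.0221% and 0.059% averaged over the treatments. In limma at an unadjusted p under 0.05 the number of members at 30 against 10 min averaged over the treatments was 5 without the block, beside 2.72% of all probe sets, and 6 with it, beside 7.16%. Under LPS plus IL-10 it was 3 (2.31% of all) and 4 (5.8%), and under LPS 3 (1.35%) and 4 (3.71%). At 20 against 10 min it was 2 (2.73%) and 4 (8.31%) for the average, 2 (1.52%) and 3 (5.44%) under LPS plus IL-10, and 1 (3.32%) and 2 (9.17%) under LPS. With the block Egr1, Egr2, Egr3 1421486_at, Nr4a1 and Myc made up the 6 at 30 min, Egr2 through both its probe sets. By 1 probe set per gene, 5 of the 9 tested genes were higher at 30 than at 10 min, with a median difference of 0.33. Of all 12527 genes 41.0% were higher, with a median of -0.03. Counted by probe set, 7 of the 17 members were higher, a share close to that of all genes. The 5 genes include Egr3 through its brighter probe set, whose difference of 0.33 is also the median. Egr3 1421486_at was lower at 30 min, so the count by gene rests in part on a gene without a clear direction.

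Egr1, Egr2 1427682_a_at, Nr4a1 and Myc were the 4 members higher at 30 than at 10 min in all 6 pairs, a property of 2.8% of tested probe sets. No member had its 30 min arrays above its 10 min arrays without overlap under LPS plus IL-10, beside 2.21% of all probe sets. Under LPS these were Egr1, Egr2 1427682_a_at and Nr4a1, 3 of 17, beside 2.03% of all. The plot of the changes at 30 over 10 min shows the averaged differences of all 17.

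**Figure D3:**
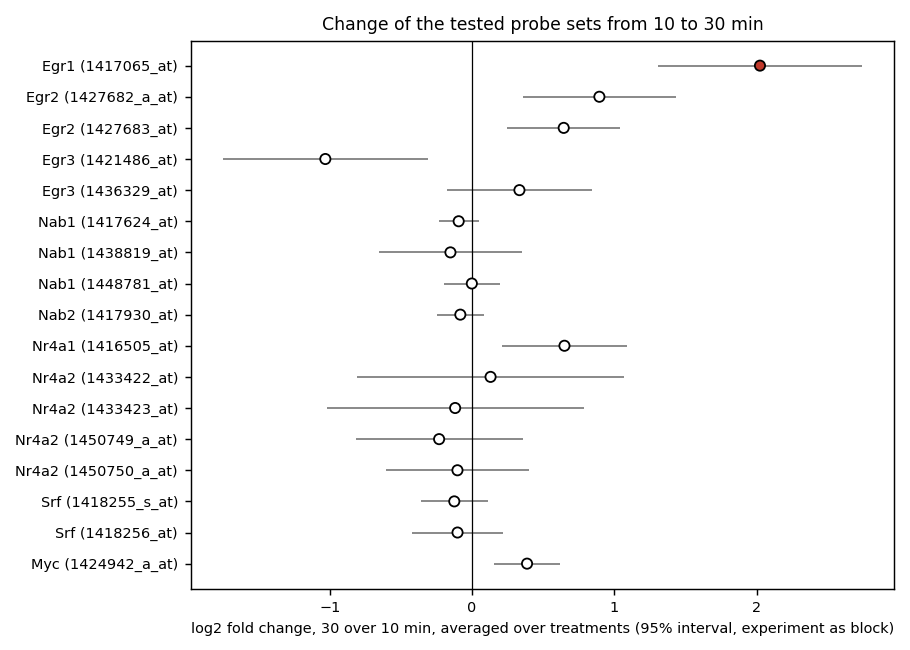
Log2 fold change of each tested probe set at 30 over 10 min, averaged over the treatments, with its 95% interval from the fit with the experiment as a block. The filled point is Egr1, at 2.02 the only one past an adjusted p of 0.05, and the intervals of Nab1, Nab2 and Srf span 0.

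No member passed the test for an IL-10 effect at any time. Of 17 tested probe sets 0 passed in the comparison of LPS plus IL-10 with LPS at 10 min, where 0% of all probe sets were called without and with the block. At 20 min the count of members was also 0, beside 0.00738% of all probe sets without and 0.0184% with the block, and at 30 min it was 0, beside 0.0111% and 0.0443%. Averaged over the times it was 0 as well, beside 0.0111% and 0.0332%. At an unadjusted limma p under 0.05, 1 of 17 members, Nr4a2 1450749_a_at, was counted at 30 min, beside 1.16% of all probe sets without and 2.81% with the block. The same 1 was counted in the average, beside 1.56% and 4.21%. The count was 0 at 10 min, beside 1.14% and 3.58%, and 0 at 20 min, beside 3.01% and 7.81%. A missing call does not show that IL-10 left a gene alone.

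The values place bounds on an IL-10 effect for Egr1. At 10 min the experiments themselves differed several-fold in signal. The IL-10 difference there was 0.24 (blocked 95% interval -0.78 to 1.26), with 0.26, 0.17 and 0.29 in experiments 1, 2 and 3. At 20 min it was -0.67 (blocked 95% interval -1.69 to 0.35), with 0.13, -0.94 and -1.20. In the blocked fit it was -0.75 without the low-end LPS array of experiment 2 and -0.05 without that of experiment 3. Without both, which leaves 1 LPS array at 20 min, it was 0.42 with the block and -0.33 without it. At 30 min it was -0.40 (blocked 95% interval -1.41 to 0.62), with 0.29, -0.87 and -0.60. Experiment 1 was thus on the other side of 0 from experiments 2 and 3 at both later times. Averaged over the times it was -0.28 (blocked 95% interval -0.86 to 0.31).

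With LPS plus IL-10, 4 of 9 member genes were higher at 10 min (median -0.03), beside 53.7% of all genes. At 20 min 5 of 9 were (median 0.02), beside 50.3%. At 30 min the members leaned lower with LPS plus IL-10, with 1 of 9 genes higher and a median of -0.12. Beside these stood 49.0% of all genes and a median of 0.00. Both Egr2 probe sets, Egr3 1436329_at, Nr4a1 and Nr4a2 1450749_a_at were lower in all 3 experiments, 5 of 17, beside 13.9% of all tested probe sets. The 2 treatments did not overlap on Egr2 1427682_a_at and Nr4a2 1450749_a_at, with LPS plus IL-10 below LPS, beside 2.76% of all. The Nr4a1 difference at 30 min was -0.55 (blocked 95% interval -1.17 to 0.08), with -0.16, -0.75 and -0.74 in the experiments. The Nr4a2 difference on 1450749_a_at was -1.28 (blocked 95% interval -2.11 to -0.45, limma adjusted p = 1.00), and the lowest of its arrays, at 9.0, had a signal under the added 16. The other 3 tested Nr4a2 probe sets were not lower in all experiments. They gave -0.89 (1433422_at), -0.62 (1433423_at) and -0.04 (1450750_a_at), each with 1 experiment above 0.

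The interaction of treatment and time asked whether the IL-10 difference itself changed. No member passed, neither from 10 to 20 min, where 0% of all probe sets were called without and 0.00738% with the block, nor from 10 to 30 min, where 0.00369% and 0.0184% were. At an unadjusted limma p under 0.05 the count of members was 0 in both fits, beside 2.05% and 6.36% of all probe sets from 10 to 20 min and 0.981% and 2.45% from 10 to 30 min. For Egr1 the change from 10 to 30 min was -0.64 (blocked 95% interval -2.07 to 0.80), and for Nr4a1 it was -0.52 (-1.4 to 0.36).

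**Figure D4:**
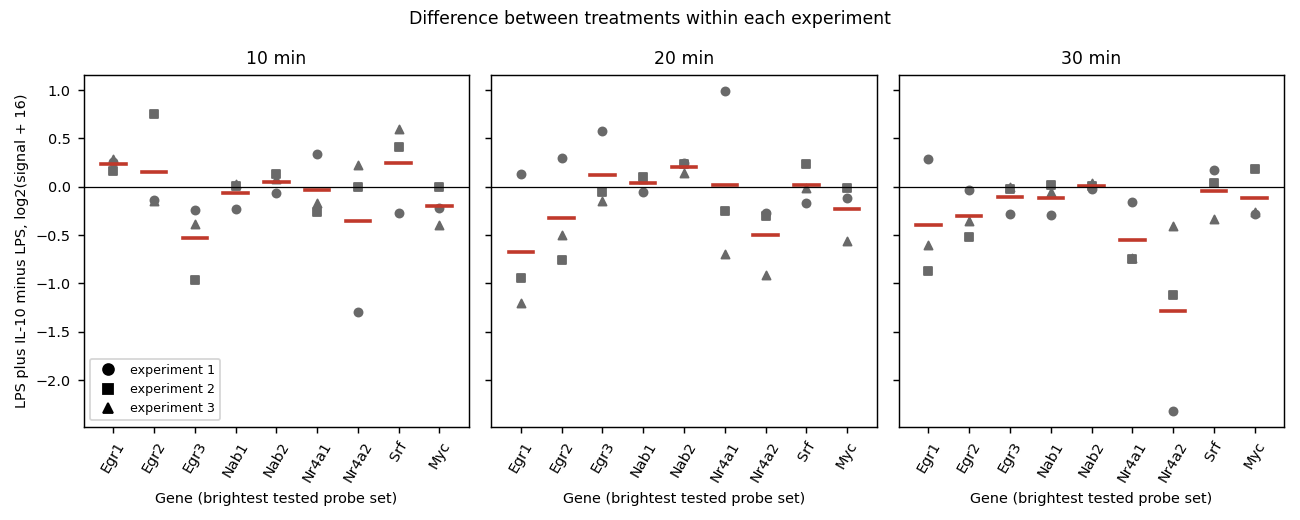
Difference in log2(signal + 16) between LPS plus IL-10 and LPS at 10, 20 and 30 min for the brightest tested probe set of each of 9 members, with 1 mark per experiment and a red bar for the mean. The 3 Egr1 marks lie together near 0.24 at 10 min and spread over both sides of 0 at 20 and 30 min.

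Gene lists around the members gave the setting for these values. Of 21 other serum response immediate early genes 19 were tested, and 17 were higher at 30 than at 10 min averaged over the treatments, with a median of 0.30. Of all genes 41.0% were higher, with a median of -0.03. Without the block 2 of the 19 passed and rose (0.059% of all probe sets were called, in either direction). These were Ier3, by 1.75, and Dusp1, a phosphatase that switches off MAP kinases, by 1.72. With the block 8 of the 19 did (0.391% of all genes rose), among them Ier2 by 1.4 and Zfp36, which destabilises cytokine mRNAs, by 1.33. In experiment 3, where Egr1 was lower at 30 than at 20 min, the list as a whole was not. There 8 of the 19 were lower at 30 than at 20 min under each treatment. The list median difference was 0.19 with LPS plus IL-10 and 0.10 with LPS. Of all genes 55.0% were lower there with LPS plus IL-10 and 53.5% with LPS. The counts in experiments 1 and 2 were 4 and 6 with LPS plus IL-10 and 10 and 3 with LPS. Fos had the Egr1 pattern, higher at 30 than at 20 min in experiments 1 and 2 and lower in experiment 3 under both treatments. In experiment 3 it went from 13678 to 13162 with LPS plus IL-10 and from 22882.5 to 16289 with LPS. Dusp1, Ier2 and Junb were higher at 30 than at 20 min in experiment 3 under both treatments.

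The other lists gave no call at 30 against 10 min in either fit. Their counts, averaged over the treatments, stand beside 41.0% of all genes higher and a median of -0.03. Of the SRF cofactors, 3 of 6 tested genes were higher, with a median of 0.02, and of the actin cytoskeleton genes driven by SRF 7 of 15 were, with a median of -0.02. Genes of the ERK pathway were higher in 4 of 10, CREB factors and Nr4a partners in 5 of 8, and the partners of NAB proteins in the NuRD repressor complex in 4 of 9. In the MYC network 4 of 12 genes were higher, and so were 4 of 12 MYC target genes. None of the 91 tested list genes passed in a comparison of LPS plus IL-10 with LPS or in an interaction.

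After the mean of each experiment was removed, Egr1 varied over the 18 arrays with Egr2 (Pearson r = 0.77), Nr4a1 (0.62) and Myc (0.57), and against Nab1 (-0.57). The arrays share time, treatment and scaling, so these correlations are descriptions. Outside the members, the genes most like Egr1 were Phlda1 (r = 0.91), the chemokine gene Cxcl1 (0.90) and Rgs1 (0.90), a regulator of G-protein signalling. Those most like Egr2 were Acod1 (0.84), which encodes the itaconate-making enzyme of activated macrophages, Neurl3 (0.84) and Gsk3b (0.82). Nr4a1 came closest to Pex16 (0.81), Sgk1 (0.79) and Extl1 (0.78), and Myc to the stress-response factor gene Nfe2l2 (0.83), Slc25a12 (0.80) and Traf1 (0.77). For Nab1 the nearest gene was Tdrd3 (0.90), for Nab2 Zswim3 (0.88), for Egr3 Lrwd1 (0.87), for Srf A330102I10Rik (0.86) and for Nr4a2 9430037G07Rik (0.86).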

How the data were processed

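RNA from 18 macrophage cultures was read on single-colour Affymetrix arrays. The authors deposited linear intensities, 1 per probe set and array, which came from GCOS 1.4 per the submitters' processing notes. For the algorithm behind the signal, the sources used here name none. Without detection calls, low signals and background look alike. With 3 arrays per group, their number limits the precision. Of 45101 probe sets 64 were controls. Of the rest, 34945 had 1 symbol in the platform annotation, which can be old, 932 had several and 9160 none. Only those with 1 symbol were named.

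Signals became log2(signal + 16), which understates changes of dim probe sets. A probe set was tested if it reached the array median on at least 3 arrays, which left 27110. The representative of a gene was its brightest tested probe set. limma 3.58.1 in R 4.3.3 (lmFit, eBayes with trend) modelled the 18 arrays together as 6 group means with 12 residual degrees of freedom. The tests were two-sided, adjusted by Benjamini-Hochberg over 27110 probe sets for each of 12 comparisons, with a threshold of 0.05. Without the experiment as a block, p-values measure the spread between the 3 experiments within the groups. With the block, they measure the spread left once average differences between the experiments are removed.

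The replicate numbers pair the samples, since the labels make each a complete experiment. After subtraction of group means, arrays correlated at 0.20 to 0.64 in 45 same-numbered pairs and at -0.47 to 0.0651 in 90 others. Values with the experiment as a block (10 residual degrees of freedom) therefore stand beside results. The fit without the block counts differences between experiments as spread.

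All probe sets of the members were described. Genes alike were the 3 with the highest Pearson r outside the members. List genes were named if called, up to 4 by size. Members, lists and tests were chosen with earlier results of these data known. The fits were tested on simulated data, for the comparison of 30 with 10 min under LPS. Without the block, 19% of changes of 1 log2 unit and 58% of those of 2 were called, with 0 false calls. With the block these shares were 52% and 79%, with 5 false calls among 27110 probe sets. Changes of this size can thus be missed. Other settings were quantile normalisation, pseudocounts of 1 and 64, 2 other filters, no intensity trend, only the groups compared, the block, and arrays left out.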

Additional observations from a re-analysis of the deposited data

How the results depend on the processing

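The first count of called members, in the fit without a block, was 0 in each of the 12 comparisons. Over 20 other settings, 229 of 237 recomputed counts were again 0, which restates a lack of calls. The others belong to the 2 comparisons of 30 with 10 min in which Egr1 stood out, and 0 members passed in both in the fit without a block. With the replicate block the count averaged over the treatments was 1, it was 2 without experiment 3, and it was 1 without either or both of the 2 low-end LPS arrays at 20 min. With LPS alone the blocked count of 0 became 1 without experiment 3, without both low-end arrays, or without that of experiment 3. Leaving out each experiment in turn gave 0 to 2 members with the block for the average, 0 to 1 with LPS alone, and 0 in the fit without it. The block changed no other call. The unblocked adjusted p of the averaged Egr1 difference ran from 0.232 to 0.38 over the settings that kept all arrays, and the difference from 1.86 with a pseudocount of 64 to 2.08 with a pseudocount of 1. Of 3921 recomputed single values 9 newly passed. With no member called in the fit without a block, no call could be lost. The sign changed in 276, whose reported size had a median of 0.078 and reached 0.911, all in results that did not pass. The fit on only the groups compared was not run for averages and interactions. Low-end leave-outs were partly chosen after seeing the data. The dim Egr3, Nr4a2 and Nr4a3 signals limit what can be said of those genes.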
